A study of Mus musculus with 19 samples.

Results

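Imprinted genes were followed in RNA of the mouse striatum, the dopamine-receiving forebrain region, after an acute dose of amphetamine. The list held 41 symbols chosen by name, and a gene was a member when its symbol occurred in the authors' deposited comparison tables. Of these 41 symbols, 39 were found, among 22901 genes named in the tables and 49592 genes in the count files; Phlda2 and Ddc-as were the 2 without a match. All 39 also passed the filter on low counts, so none of the results below was restricted to the better expressed members.

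The tissue came from 19 male mice aged 4 months, all of the D2RCre_floxCas9-EGFP line, in which Cre, driven by the gene of the dopamine D2 receptor, switches on the nuclease Cas9 and EGFP. Control mice therefore carried the same alleles as knockout mice, and the groups differed in the adeno-associated virus (AAV5) placed in the medial prefrontal cortex. PFC_D2R-KO mice (KO below) were given a guide RNA against the D2 receptor, while control mice were given AAV5 syn-mCherry, a fluorescent protein vector. Each mouse had 5 days of saline, and on day 9 a challenge of amphetamine at 3 mg/kg, a drug that releases dopamine, or of saline, with killing 90 min after amphetamine. The groups were amphetamine KO (n = 4), saline KO (n = 5), amphetamine control (n = 5) and saline control (n = 5), each library being a different mouse. By its label, the authors' comparison of KO mice was made without a further amphetamine KO mouse. That mouse is not among the 19 libraries, and the reason is not stated in the sources at hand. The receptor was targeted in prefrontal cells with the Cre driver only, so its striatal transcript is no check of the knockout, and its loss in the cortex was not measured in these libraries.

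Imprinted genes are expressed mainly from the maternal or the paternal copy, which is set by DNA methylation laid down in the germ line at control regions that each serve a cluster of genes. Many of them act in growth, in placental supply and in the brain, and several of the paternally expressed ones are abundant in hypothalamic neurons. In some clusters the allele used depends on the tissue: the ubiquitin ligase gene Ube3a, for example, is silenced on the paternal copy in neurons by the antisense transcript Snhg14. The counts here add both alleles, so they measure how much of a gene was transcribed and not whether its imprint held.

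The promoters of 4 members are shown first, because these genes recur in the comparisons below. They come from the RefSeq table for GRCm38.p6, which gives 300 bases around the start of each transcript, 5′ to 3′ on the gene's strand. Capitals mark TGCCGC or its reverse complement GCGGCA, the hexamer bound in methylated form by ZFP57, a zinc finger protein that protects imprints in the early embryo. The windows are chr2:157559828-157560127 on the plus strand (Nnat), chr6:3763574-3763873 on the minus strand (Calcr), chr7:6696383-6696682 on the minus strand (Zim1) and chr12:109452573-109452872 on the plus strand (Dlk1). Calcr has a second window, chr6:3764664-3764963 on the minus strand, which lacks the hexamer and is not shown. The windows shown hold the hexamer more often than member promoters in general and are no sample of them.
Nnat: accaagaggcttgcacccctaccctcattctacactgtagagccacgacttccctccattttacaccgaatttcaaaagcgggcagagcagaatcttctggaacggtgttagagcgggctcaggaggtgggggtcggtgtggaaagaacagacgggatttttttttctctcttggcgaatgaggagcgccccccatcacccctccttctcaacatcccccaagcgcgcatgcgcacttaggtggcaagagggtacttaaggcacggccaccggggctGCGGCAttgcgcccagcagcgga
Calcr: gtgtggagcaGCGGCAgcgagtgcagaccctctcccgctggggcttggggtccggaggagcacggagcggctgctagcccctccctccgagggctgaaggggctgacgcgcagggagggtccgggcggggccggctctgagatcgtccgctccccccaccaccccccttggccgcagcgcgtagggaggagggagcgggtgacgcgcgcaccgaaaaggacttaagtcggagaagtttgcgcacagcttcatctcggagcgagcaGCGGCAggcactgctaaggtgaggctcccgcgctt
Zim1: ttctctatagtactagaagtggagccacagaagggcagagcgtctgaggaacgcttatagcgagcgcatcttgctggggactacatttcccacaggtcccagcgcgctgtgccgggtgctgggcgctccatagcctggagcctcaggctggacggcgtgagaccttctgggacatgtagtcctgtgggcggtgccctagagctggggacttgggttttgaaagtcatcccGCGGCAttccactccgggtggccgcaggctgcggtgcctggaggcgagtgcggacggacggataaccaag
Dlk1: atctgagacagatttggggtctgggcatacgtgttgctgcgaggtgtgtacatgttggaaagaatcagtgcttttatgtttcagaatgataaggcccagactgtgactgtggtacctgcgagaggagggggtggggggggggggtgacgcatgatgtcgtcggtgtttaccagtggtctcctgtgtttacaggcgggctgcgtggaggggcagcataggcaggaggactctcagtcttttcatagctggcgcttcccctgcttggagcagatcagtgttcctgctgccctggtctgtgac
The hexamer stood on either strand in 14 of the 49 promoters of the 32 members in the table, or 28.6%, against 11.6% of all 32851 promoters of the same length. Member promoters also held more CpG dinucleotides, with a median of 15 against 7 over all promoters, and the hexamer itself contains a CpG. A match is a run of letters and no evidence of binding, and control regions often lie away from the promoter. Peg10, Sgce, H19, Peg13, Trappc9, Cdkn1c and Impact had no entry.

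Library totals ran from 57003408 to 85536346 counts, and no pair of libraries within a group agreed within sampling noise (smallest chi-square per degree of freedom 11.2). A set of 5 libraries had stood apart on principal components in earlier results of these data: amphetamine KO 2 and 3, saline KO 3, amphetamine control 3 and saline control 5. Results that rest on them are therefore also given for the other 14 libraries, which leave 2 amphetamine KO mice. Markers of striatal projection neurons, the main cells of this tissue, were present in every library, but their summed level reached only 1883 CPM in amphetamine KO 3, against 5147 to 6635 CPM in amphetamine control mice. CPM are counts relative to the library total, scaled by the trimmed-mean (TMM) method.

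Imprinted genes were well represented in the striatum. On the scale of the authors' FPKM, fragments per length of gene and library size, which allows genes to be compared, 23 of 39 members averaged above 10 FPKM (59.0%), as did 27.4% of all named genes. Snrpn, which encodes the spliceosomal protein SmN, led with a mean of 431 FPKM (range 382 to 536 over 19 mice). Nap1l5, a gene without introns that resembles nucleosome assembly proteins and lies inside Herc3, averaged 407 FPKM with a wider range of 195 to 658. Gnas, encoding the stimulatory G protein alpha subunit and several other transcripts of differing imprint, followed at 293 FPKM (218 to 380.4). Nnat, the small membrane protein neuronatin, averaged 202 FPKM (113 to 329), and Meg3, a maternally expressed noncoding RNA, 159.6 FPKM (119.8 to 225). Impact, a regulator of translation under stress, averaged 137 FPKM (90.5 to 189).

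Below these 6 came the rest of the 23 members above 10 FPKM, from Rian at 92.0 FPKM to Mest at 11.2 FPKM. A further 12 members averaged between 1 and 10 FPKM and 4 at or below 1 FPKM. The low end held the fetal growth genes: Igf2 averaged 1.13 FPKM and H19, its noncoding neighbour, 0.0454 FPKM with a library at 0 counts. The cell cycle inhibitor Cdkn1c averaged 2.29 FPKM. The order is only coarse, since 27 of the 38 steps from one member to the next were smaller than the larger of the SDs over mice of the genes on each side (log2 scale). Spread between mice of a group differed widely among members: the coefficient of variation of CPM within groups was 4.88% for the coatomer subunit Copg2 and 6.78% for Ube3a, but 44.5% for Calcr and 34.8% for Magel2.

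**Figure D1:**
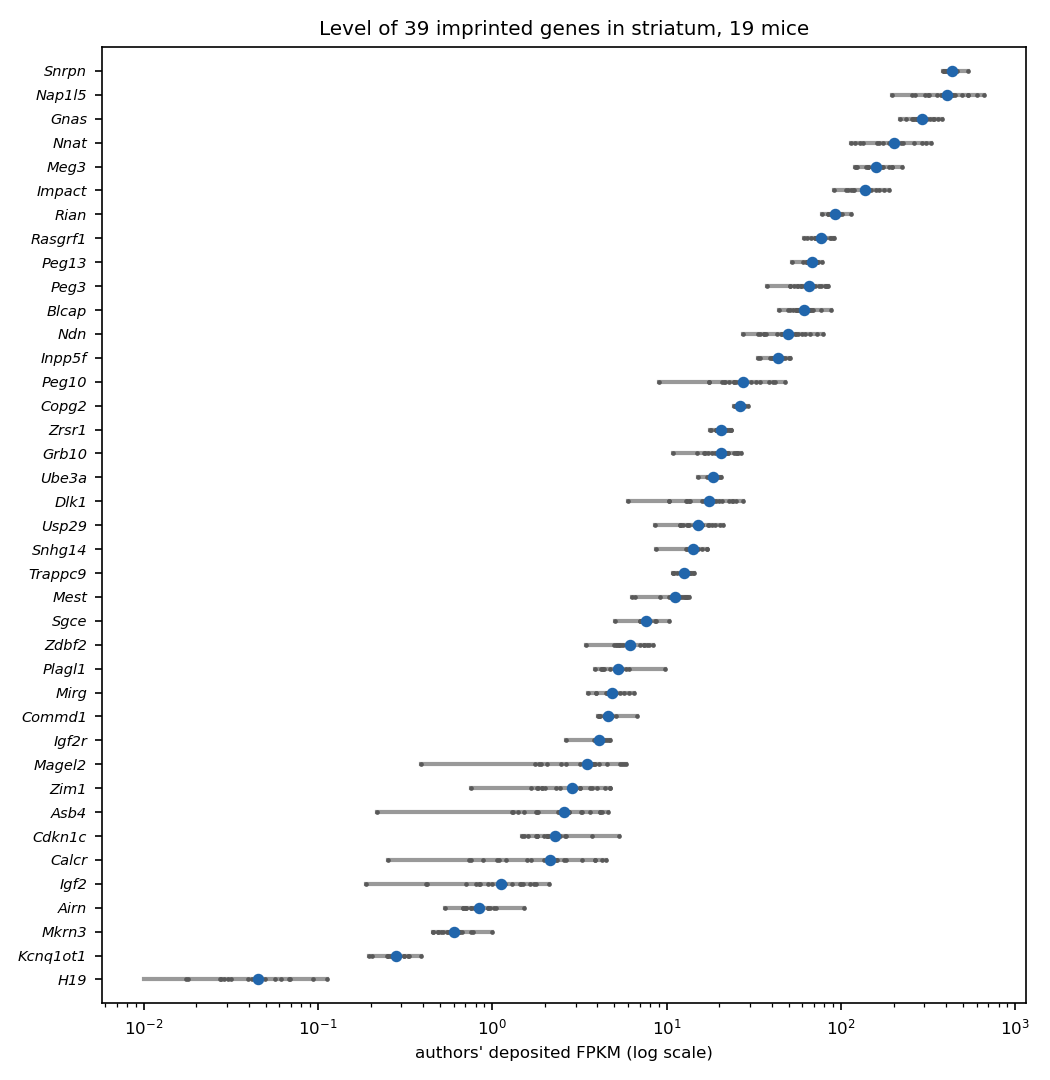
Level of the 39 imprinted genes in authors' deposited FPKM on a log axis; the large dot is the mean over 19 mice, small dots are mice, and the grey line is the range (for H19 it runs to the left edge because a library was listed at 0). Snrpn is highest at 431 FPKM and H19 lowest at 0.0454 FPKM.

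The first comparison asked how striatal transcripts differ after amphetamine in control mice. Imprinted genes were mostly lower in amphetamine control than in saline control mice: 34 of 39 had a negative log2 fold change (87.2%), against 51.6% of the 21513 genes tested, while 5 were above 0 (12.8%, against 48.4%), and the median was -0.21 over the members and -0.01 over all genes. At an unadjusted p under 0.05, 19 of 39 members were lower (48.7%), against 6.95% of all genes, and 0 were higher, against 4.89%. After Benjamini-Hochberg adjustment, however, edgeR's quasi-likelihood test called no member (smallest adjusted p = 0.144), and only 0.00465% of all genes, which is 1 gene. DESeq2 on the same counts called 5 of the 38 members with an adjusted p (1.13% of genes), and limma voom called 0. The authors' deposited table gives 6 members of 38 as lower at an adjusted p under 0.05 and 0 as higher, where 1.99% of its genes are lower and 2.23% higher. The 6 were Nnat, Dlk1, Blcap, Peg10, Calcr and Usp29, and edgeR called none of them.

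Dlk1 (chr12:109418775-109429262, GRCm39), a transmembrane protein related to the Notch ligands, had 62.8, 47.5, 28.1, 60.3 and 48.2 CPM in amphetamine control mice, against 86.8, 63.2, 111, 116 and 106 CPM in saline control mice. Every amphetamine value lay under every saline value, with 62.8 and 63.2 CPM in the closest mice. The log2 fold change was -0.97 ± 0.206 (SE; edgeR adjusted p = 0.144), and the authors' deposited table gives -0.97 with an adjusted p of 0.000462. Meg3, the maternally expressed RNA of the same cluster, had 1805, 2334, 1768, 2309 and 2288 CPM in amphetamine control mice and 2854, 2084, 3267, 2828 and 2062 CPM in saline control mice. These groups overlapped, with 2 saline mice as low as the amphetamine mice (log2 fold change -0.32 ± 0.125, edgeR adjusted p = 0.318). The cluster's other noncoding RNAs, Rian and Mirg, which carry small RNAs in their introns, were at -0.10 and -0.25.

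Nnat (chr2:157401998-157404442) had 194, 174, 164, 230.1 and 186 CPM in amphetamine control mice, against 251, 321, 296, 381 and 280.2 CPM in saline control mice. Its groups did not overlap either, and the log2 fold change was -0.69 ± 0.167 (edgeR adjusted p = 0.149; 1.45e-05 in the authors' deposited table). Blcap, a small membrane protein gene first described in bladder cancer whose span contains Nnat on the opposite strand, had 117, 107, 93.1, 111 and 104 CPM in amphetamine control mice and 126, 123, 138, 145 and 126 CPM in saline control mice. The shift was small but again without overlap, at -0.31 ± 0.103 (edgeR adjusted p = 0.245; 0.00701 in the authors' deposited table). No source used here says whether the counting used strand, so reads of Nnat and Blcap cannot be fully told apart. With Asb4, these were the 4 members with no overlap in this direction (10.3% of members, against 1.68% of all genes).

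The cluster around Peg10 and Sgce on chromosome 6 split. Calcr, the calcitonin receptor, had 4.49, 2.76, 0.948, 3.30 and 2.82 CPM in amphetamine control mice and 6.28, 4.11, 14.5, 14.7 and 8.72 CPM in saline control mice. Its log2 fold change was the most negative of all members at -1.76 ± 0.40 (edgeR adjusted p = 0.149; 0.0109 in the authors' deposited table), though 1 saline mouse lay within the amphetamine range. Peg10, a gene derived from a retrotransposon and needed for the placenta, had 151, 116, 60.5, 137 and 116 CPM in amphetamine control mice, against 204, 145, 272, 277 and 166 CPM in saline control mice (-0.87 ± 0.217, edgeR adjusted p = 0.170; 0.00755 in the authors' deposited table). Again a single saline mouse, saline control 2, lay within the amphetamine range. Asb4, an adaptor of a ubiquitin ligase, averaged 4.02 ± 1.96 CPM in amphetamine control mice and 10.3 ± 3.40 CPM in saline control mice (SD, n = 5 each; -1.36 ± 0.383, edgeR adjusted p = 0.20). Sgce, which encodes epsilon-sarcoglycan, the gene of human myoclonus-dystonia, lies next to Peg10 and did not share this difference, with 32.8, 30.7, 32.8, 32.8 and 34.3 CPM in amphetamine control mice and 31.8, 34.0, 33.1, 35.5 and 22.3 CPM in saline control mice (0.06 ± 0.102).

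All 3 members of the Peg3 cluster on chromosome 7 were lower at an unadjusted p under 0.05. Usp29, a ubiquitin-specific protease, had 99.8, 89.6, 64.3, 101 and 90.3 CPM in amphetamine control mice and 119.7, 90.9, 137, 143 and 132 CPM in saline control mice. A single saline mouse, saline control 2, fell inside the amphetamine range (-0.49 ± 0.149, edgeR adjusted p = 0.212; 0.0275 in the authors' deposited table). The zinc finger genes Peg3 and Zim1 were at -0.43 and -1.01 (edgeR adjusted p = 0.264 and 0.20).

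In the Prader-Willi/Angelman cluster, the direction again depended on the gene. The intronless MAGE family genes Magel2 and Ndn, which are known for their roles in hypothalamic neurons, were at -1.22 ± 0.373 and -0.51 ± 0.182 (edgeR adjusted p = 0.214 and 0.282). Snrpn, with the highest FPKM of the members, was level at 881 ± 34.5 CPM in amphetamine control mice and 861 ± 64.1 CPM in saline control mice (SD, n = 5 each; 0.03 ± 0.0822). Snhg14 was at -0.13 ± 0.11 and Ube3a at -0.01.

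Among single-gene loci and pairs, Gnas averaged 983 ± 86.5 CPM in amphetamine control mice and 1182 ± 155 CPM in saline control mice (-0.27 ± 0.101). Nap1l5 averaged 548 ± 142 and Impact 426 ± 56.8 CPM in amphetamine control mice, against 774 ± 201 and 523 ± 72.4 CPM in saline control mice (-0.50 ± 0.214 and -0.29 ± 0.129). Rasgrf1, a calcium-responsive activator of Ras in neurons, averaged 335 ± 25.1 CPM in amphetamine control mice and 387 ± 36.6 CPM in saline control mice (-0.21 ± 0.0876). None of these 4 was called, with edgeR adjusted p from 0.305 to 0.377. Grb10, an adaptor that dampens insulin receptor signalling, and the zinc finger gene Zdbf2 were at -0.44 and -0.43. Commd1, a regulator of copper transport and NF-kappaB, was level at -0.02 ± 0.0978.

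The split by allele was even. Of 24 members known as paternally expressed, 21 were below 0 with a median of -0.25, and of 14 maternally expressed ones 12 were below 0 with a median of -0.16. Of the 8 noncoding members 7 were below 0, but only Meg3 had an unadjusted p under 0.05, against 18 of the 31 protein-coding members. Without the 5 libraries that stood apart, 34 of 39 were below 0 with a median of -0.24, 18 were lower at an unadjusted p under 0.05 (against 8.6% of the 22041 genes in that fit) and edgeR called 0. Of these 18, 15 were among the 19 above. Igf2 and the noncoding Mirg and Kcnq1ot1 were added, so that 3 noncoding members then passed, and Nap1l5, Impact, Rasgrf1 and Trappc9 no longer did.

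**Figure D2:**
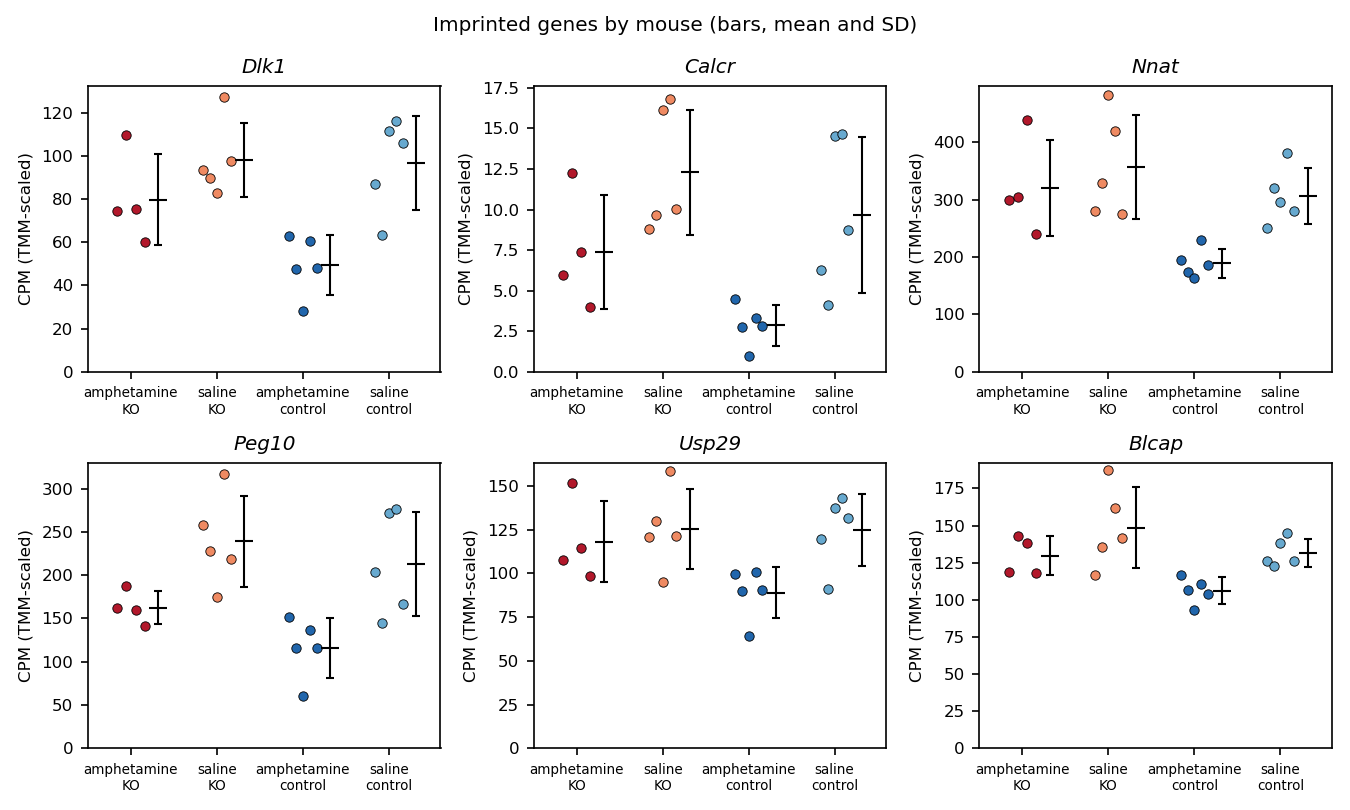
TMM-scaled CPM in each of 19 mice for the 6 members that the authors' deposited table calls lower in amphetamine control than in saline control mice; points are mice and bars are the mean and SD of the group. For Dlk1, Nnat and Blcap the amphetamine control points all lie below the saline control points, and KO points lie mostly at the height of saline control.

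Markers of neurons from the hypothalamus and preoptic area, which border the ventral striatum, moved with the imprinted genes. Of the 19 listed markers, all of which passed the count filter, 17 were lower in amphetamine control than in saline control mice, 12 of them at an unadjusted p under 0.05, and the median log2 fold change was -1.57. Their summed level ran from 211.0 to 285 CPM in amphetamine control mice and from 211.1 to 459 CPM in saline control mice, and most of this sum is Sst, which striatal interneurons also express. Oxt, the oxytocin gene and a defining marker, ran from 0.107 to 8.58 CPM in amphetamine control mice and from 0.364 to 56.8 CPM in saline control mice, while 4 of the 19 markers were at 0 in at least 1 library. In control mice the same libraries were at the ends of both measures: amphetamine control 3 was lowest of 19 for the imprinted genes (median deviation from each gene's mean -0.28 on the log2 scale) and for the markers (-2.29). Saline control 2 was the lowest of its group for both (-0.13 and -1.71), and saline control 4 the highest of its group for both (0.20 and 1.40). Amphetamine control 3 was also lowest of 19 for septal and pallidal (-0.99) and choroid plexus markers (-0.98). Saline control 2 was lowest of its group for these as well (-0.17 and -0.20). In saline KO mice the ends differed. Imprinted genes were highest in saline KO 4 (0.18) and lowest in saline KO 5 (0.05). Hypothalamic and preoptic markers were highest in saline KO 3 (1.25) and lowest in saline KO 2 (0.44). In amphetamine control against saline control mice, septal and pallidal markers were lower in 6 of 8, with a median of -0.53. Striatal projection neuron markers were higher in 13 of 14 there, with a median of 0.45. Cortical projection neuron markers were higher in 11 of 12 (median 0.64), while meningeal fibroblast markers were lower in 11 of 12 (-0.37) and choroid plexus markers in 8 of 11 (-0.50). Astrocyte markers were lower in 7 of 10 (median -0.13), 4 of them at an unadjusted edgeR p under 0.05. Their median deviation was -0.16 to -0.09 in amphetamine control mice. It was -0.02 to 0.23 in saline control mice, without overlap. Endothelial and pericyte markers were lower in 5 of 12 and higher in 7 (median 0.04). The part of any of these cell types in the imprinted gene result was not tested, and in bulk tissue fewer cells of a type and less RNA per cell cannot be told apart.

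**Figure D3:**
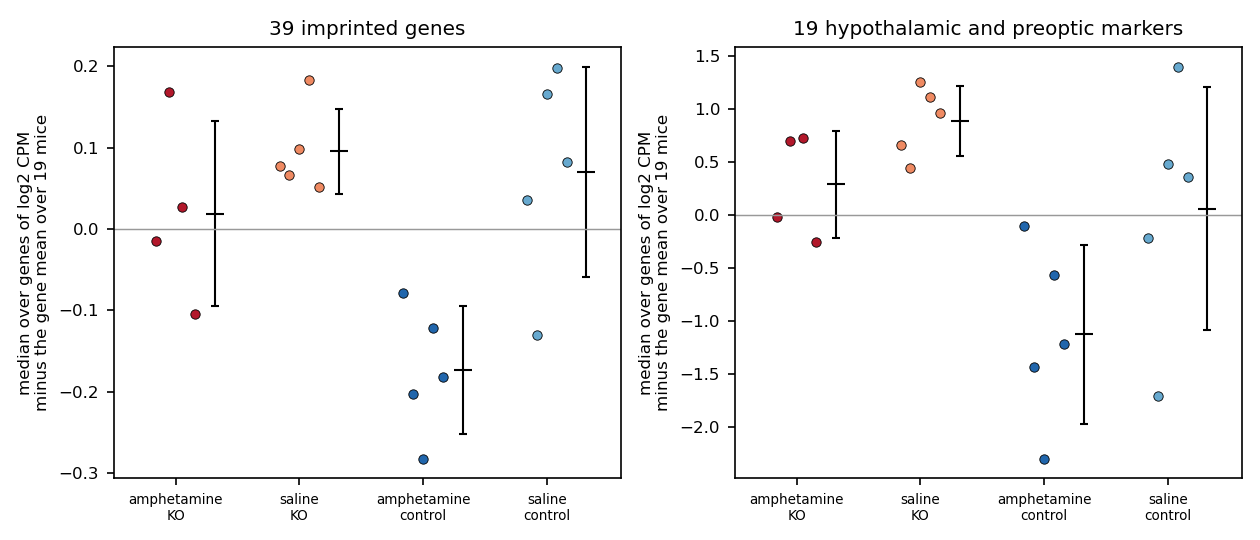
Median over genes of log2 CPM minus each gene's mean over 19 mice, for the 39 imprinted genes (left) and the 19 hypothalamic and preoptic markers (right); points are mice and bars the mean and SD of the group. All 5 amphetamine control mice are below 0 on the left, between -0.28 and -0.08, and amphetamine control 3 is lowest in both panels.

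In KO mice the difference after amphetamine was smaller and mixed. Of 39 members, 27 were lower in amphetamine KO than in saline KO mice (69.2%, against 51.1% of all genes), with a median of -0.09. In all, 3 were lower and 1 higher at an unadjusted p under 0.05 (7.69% and 2.56% of members, against 6% and 6.09% of all genes), shares close to or under those of all genes. Neither edgeR, DESeq2, limma voom nor the authors' deposited table called a member. edgeR called 0.00465% and DESeq2 0.485% of all genes, and the smallest edgeR adjusted p of a member was 0.305. The authors' deposited comparison gives 0.259% of genes as lower and 0.406% as higher.

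Peg10 had 162, 187, 159.5 and 141 CPM in amphetamine KO mice, against 258, 228, 175, 317 and 218 CPM in saline KO mice. Only saline KO 3 lay in the amphetamine range, and the log2 fold change was -0.56 ± 0.230 (edgeR adjusted p = 0.361). Commd1 had 18.8, 18.4, 20.2 and 18.3 CPM in amphetamine KO mice and 21.9, 21.1, 30.9, 20.8 and 20.7 CPM in saline KO mice (-0.29 ± 0.104, edgeR adjusted p = 0.305). It was the 1 member lower without overlap (2.56% of members, against 2.84% of all genes). Sgce followed, with 32.3, 33.4, 30.6 and 31.7 CPM in amphetamine KO mice and 34.4, 37.8, 45.9, 38.1 and 33.2 CPM in saline KO mice (-0.24 ± 0.108, edgeR adjusted p = 0.384). Its groups overlapped at saline KO 5 alone. The hypothalamic and preoptic markers were lower in 16 of 19 here, with a median of -0.41. Striatal projection neuron markers were lower in 13 of 14 (median -0.35), the other direction from control mice, and cortical markers higher in 9 of 12 (0.94). Their part was not tested.

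Cdkn1c went the other way, with 3.06, 7.12, 9.99 and 4.64 CPM in amphetamine KO mice and 3.98, 3.76, 4.57, 3.89 and 3.44 CPM in saline KO mice (0.66 ± 0.244, edgeR adjusted p = 0.314). The excess came from amphetamine KO 2 and 3, and without the 5 libraries that stood apart the log2 fold change was 0.02. Igf2 was higher without overlap, at 7.91 ± 1.49 CPM in amphetamine KO mice (SD, n = 4) and 4.48 ± 2.09 CPM in saline KO mice (SD, n = 5), as 2.22% of all genes were. Markers of meningeal fibroblasts, a cell layer that expresses Igf2, were higher in 12 of 12, with 167 to 247 CPM summed in amphetamine KO mice and 70.2 to 158 CPM in saline KO mice; none was at 0, and their part was not tested. Choroid plexus markers, another Igf2-expressing tissue, summed to 195 to 1129 CPM in amphetamine KO mice and 203 to 284 CPM in saline KO mice, with none at 0. The high value was that of amphetamine KO 2 alone, and the part of these markers was not tested either.

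This comparison rested on the libraries chosen more than the one in control mice. Without the 5 libraries, 30 of 39 members were below 0 with a median of -0.14, and 13 were lower and 0 higher at an unadjusted p under 0.05, against 5.28% and 4.94% of all genes in that fit, with 0 called by edgeR. The 13 include the 3 named above as lower. Leaving out amphetamine KO 2 alone gave 9 lower members, and leaving out amphetamine KO 4 or saline KO 4 gave 1. In the set of 14 libraries Calcr was at -1.20, Zim1 at -0.77, Peg10 at -0.76, Dlk1 at -0.61 and Ndn at -0.57, with the same sign as in control mice.

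**Figure D4:**
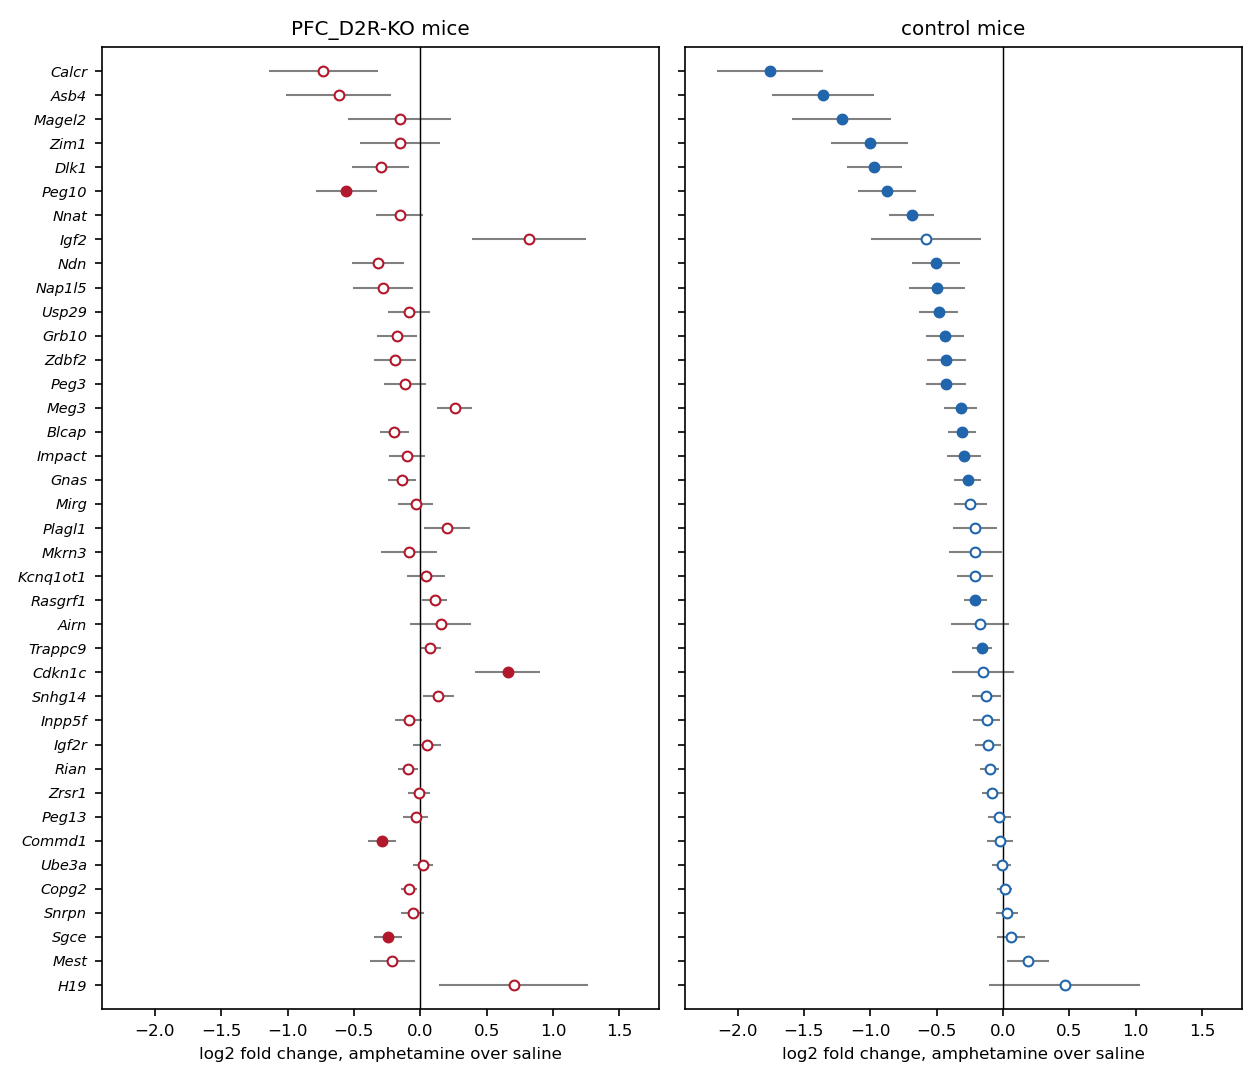
Log2 fold change of amphetamine over saline for the 39 members in PFC_D2R-KO mice (left) and control mice (right), in the order of the control values; bars are the SE of edgeR's fit and filled points have an unadjusted p under 0.05. In control mice 19 filled points lie below 0; in KO mice 3 lie below 0 and 1 above.

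Under saline, members were divided, with 17 below 0 and 22 above (56.4%, against 51% of all genes) in saline KO against saline control mice and a median of 0.02. At an unadjusted p under 0.05, 2 were lower and 1 higher (5.13% and 2.56% of members, against 4.15% and 3.79% of all genes; 7.94% of all genes in either direction). None had groups without overlap, against 0.4% of all genes lower and 0.511% higher. None was called by edgeR, DESeq2, limma voom or the authors' deposited table; edgeR called 0% and DESeq2 0.00931% of all genes, and the authors gave 0.00439% as lower in their deposited table. Meg3, whose values in saline control mice are given above, had 2309, 2068, 1764, 2310.5 and 2025 CPM in saline KO mice (-0.32 ± 0.125, edgeR adjusted p = 0.614). Snhg14 had 109, 92.0, 60.0, 96.7 and 90.3 CPM in saline KO mice and 116, 97.0, 117, 101 and 96.6 CPM in saline control mice (-0.24 ± 0.11, edgeR adjusted p = 0.614). Sgce averaged 37.9 ± 4.93 CPM in saline KO mice and 31.4 ± 5.22 CPM in saline control mice (SD, n = 5 each; 0.27 ± 0.102, edgeR adjusted p = 0.614). The sizes for Sgce and Snhg14 depended on the libraries kept. Saline KO 3 had the highest Sgce and the lowest Snhg14 of its group, and saline control 5 the lowest Sgce. Without the 5 libraries the log2 fold changes were 0.10 ± 0.0587 for Sgce and -0.15 ± 0.0711 for Snhg14 (SE). Relative to its SE, the Snhg14 difference was about as large as in all libraries, while the Sgce difference was smaller. The saline control mice also enter the first comparison. Hypothalamic and preoptic markers were higher in 17 of 19, with a median of 0.54 and 299 to 436 CPM summed in saline KO mice, and their part was not tested.

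Under amphetamine, imprinted genes were mostly higher in KO than in control mice. The amphetamine control mice are the same as in the first comparison, so a low level in them enters both. Of 39 members, 33 were higher (84.6%, against 51% of all genes), with a median of 0.25 against 0.00 over all genes. At an unadjusted p under 0.05, 18 were higher (46.2%, against 7.44% of all genes) and 1, the hydrolase gene Mest, was lower (2.56%, against 5.34%). edgeR called 0 members and 0% of all genes (smallest adjusted p of a member 0.220), limma voom 0 members, and DESeq2 only Nnat, with 0.499% of all genes.

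Nnat had 300.3, 304, 439 and 240.2 CPM in amphetamine KO mice, all above the 5 amphetamine control values given above (0.76 ± 0.176, edgeR adjusted p = 0.220). Blcap had 119, 143, 138 and 118 CPM in amphetamine KO mice, also above all amphetamine control mice (0.29 ± 0.109, edgeR adjusted p = 0.280). These were the 2 members higher without overlap (5.13%, against 3.08% of all genes), and Mest was lower without overlap (2.56%, against 3.71%). Dlk1 had 74.4, 109.5, 75.2 and 60.0 CPM in amphetamine KO mice, with 1 mouse inside the amphetamine control range (0.69 ± 0.216, edgeR adjusted p = 0.227). Calcr had 5.96, 12.3, 7.37 and 4.00 CPM in amphetamine KO mice (1.37 ± 0.414, edgeR adjusted p = 0.227), with the lowest inside the amphetamine control range. Cdkn1c averaged 6.20 ± 3.03 CPM in amphetamine KO mice (SD, n = 4) and 3.64 ± 0.649 CPM in amphetamine control mice (SD, n = 5; 0.77 ± 0.245, edgeR adjusted p = 0.227).

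The count of higher members depended on few libraries. It was 2 of 39 without the 5 libraries (Igf2 and Nnat, against 2.69% of all genes in that fit), with a median of 0.08. Igf2 was then at 1.51 and Nnat at 0.46, while Calcr was at 0.58, Dlk1 at 0.30, Cdkn1c at 0.19 and Blcap at 0.11. It was 7 without amphetamine KO 2 alone and 9 without amphetamine control 3 alone. The transcription factor gene Plagl1 was at 0.41 in all libraries and at -0.15 without the 5. Hypothalamic and preoptic markers were higher in 17 of 19 in this comparison, 11 at an unadjusted p under 0.05, with a median of 1.43 and a summed level of 217 to 329 CPM in amphetamine KO mice. Striatal projection neuron markers were lower in 14 of 14 with a median of -0.76, and choroid plexus markers higher in 11 of 11 with a median of 1.08, their sum being high in amphetamine KO 2 alone. Their part in the imprinted gene result was not tested.

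The interaction asked whether the difference after amphetamine itself differed between KO and control mice. No member was called by edgeR (0% of all genes, smallest adjusted p of a member 0.519), DESeq2 (0.0722% of all genes) or limma voom, so a different response of any imprinted gene in KO mice was not shown. At an unadjusted p under 0.05, 7 members had a positive term (17.9%, against 5.2% of all genes, or 9.25% in either direction) and 0 a negative one (against 4.05%). Meg3 had the smallest p: its log2 fold change after amphetamine was 0.26 in KO and -0.32 in control mice, a difference of 0.58 ± 0.181 (edgeR adjusted p = 0.519). The amphetamine KO mice had 2521, 2726, 2289 and 2491 CPM of Meg3. Rasgrf1 differed by 0.32 ± 0.128 and Cdkn1c by 0.81 ± 0.338 (both edgeR adjusted p = 0.519). All 4 groups enter this term, so it shares its mice with the comparisons above. Over all members 33 terms were above 0 (84.6%, against 50.9% of all genes) with a median of 0.24, which became 23 and 0.05 without the 5 libraries, with Meg3 at 0.54, Rasgrf1 at 0.12 and Cdkn1c at 0.20. At an unadjusted p under 0.05, 3 members were positive without the 5 libraries (against 2.77% of all genes in that fit), namely Meg3 and Igf2 of the 7, and Mirg. The count was also 3 without saline control 4, 4 without any 1 of amphetamine KO 2, amphetamine KO 3, saline KO 2 or amphetamine control 3, and 12 without amphetamine KO 4. Cell type markers moved with this term as well: those of striatal projection neurons were below 0 in 14 of 14 (median -0.73), and hypothalamic and preoptic ones were above 0 in 17 of 19 (1.00). Choroid plexus markers were above 0 in 10 of 11 (1.32) and meningeal ones in 12 of 12 (0.97), and the part of these cell types was not tested.

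Some neighbouring genes of a cluster varied together from mouse to mouse. Neighbours here are genes of the same cluster, and some pairs, such as Asb4 and Calcr, have other members between them. For 20 such pairs, log2 CPM was correlated across the 19 mice after each group's mean was removed. Mice were permuted 100000 times within groups, and p was adjusted over the 20 pairs. Pearson r was above 0 in 15 pairs, with a median of 0.47, and had an adjusted permutation p under 0.05 in 9, of which 8 were positive. By Spearman rho alone, Meg3-Mirg (0.640), Rian-Mirg (0.521) and Igf2r-Airn (-0.507) also passed (adjusted permutation p = 0.0385 each). Their r was 0.599, 0.461 and -0.269, and 0.310, 0.291 and -0.538 without the 2 mice farthest out on the first gene. Without the 5 libraries that stood apart, Igf2r-Airn was at -0.587. Imprinted genes of different clusters were correlated as well: over all 704 such pairs of members the median was 0.21, with 65.1% above 0 and 27% above 0.5, against 75% above 0 and 45% above 0.5 of the neighbouring pairs. Without the 5 libraries that stood apart, 71.2% of the pairs of different clusters were above 0 and 31.4% above 0.5 (median 0.31). Of the neighbouring pairs, 75% were then above 0 and 55% above 0.5 (median 0.53). These differences were not tested. Peg3 and Usp29, which start next to each other on opposite strands, gave Pearson r = 0.936 (Spearman rho = 0.860; adjusted p = 0.000533 and 0.0025). Peg3 and Zim1, which are read from opposite alleles, gave r = 0.906 (rho = 0.870; adjusted p = 0.000533 and 0.0006). Asb4 and Calcr, maternally expressed genes of one cluster, gave r = 0.885 (rho = 0.902; adjusted p = 0.000533 and 0.0006). Without the 2 mice farthest from the median on the first gene, these 3 were at 0.888, 0.826 and 0.837.

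A further 4 positive pairs held without those mice. Nnat and Blcap were at r = 0.754 (rho = 0.721; adjusted permutation p = 0.00556 and 0.0119; 0.685 without the 2 mice), and the MAGE genes Ndn and Magel2 at r = 0.745 (rho = 0.809; adjusted permutation p = 0.00065 and 0.000867; 0.664). Ndn and Snrpn were at r = 0.583 (rho = 0.640; adjusted permutation p = 0.0338 and 0.0313; 0.609). Igf2 and H19, which share enhancers and are known as paternally and maternally expressed, were at r = 0.558 (rho = 0.696; adjusted permutation p = 0.00583 and 0.00464; 0.682). H19 had only 0 to 20 counts per library, so counting error weighs on this pair. The allele used in this tissue was not measured. Without the 5 libraries that stood apart, these 4 pairs were at 0.634, 0.854, 0.393 and 0.661 in this order, with Ndn and Snrpn the weakest.

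The antisense pair of the Angelman locus was less stable. Snhg14 and Ube3a, whose spans overlap by 3613 bases on opposite strands, gave r = 0.777 (rho = 0.577; adjusted permutation p = 0.0229 and 0.0385), but 0.402 without the 2 farthest mice. Snrpn and Snhg14, which are read in the same direction from the paternal copy, gave r = -0.776 (rho = -0.633; adjusted permutation p = 0.0183 and 0.0322), but -0.424 without the 2 farthest mice. Both of these relations rest largely on those mice, saline KO 1 and saline KO 3, the second of them with its high Snrpn of 1126 CPM and low Snhg14 of 60.0 CPM. Members of a cluster did not always vary together: Peg10 and Sgce, whose starts adjoin, gave r = 0.102, and Meg3 and Rian 0.115 (adjusted permutation p = 0.763 and 0.677). Without the 5 libraries that stood apart, however, Meg3 and Rian were at 0.626 and Meg3 and Mirg at 0.927, against 0.599 in all mice, while Peg10 and Sgce were at 0.296. The hypothalamic and preoptic markers also varied between mice of a group, from -1.71 to 1.40 in saline control mice, and their part in these correlations was not tested.

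**Figure D5:**
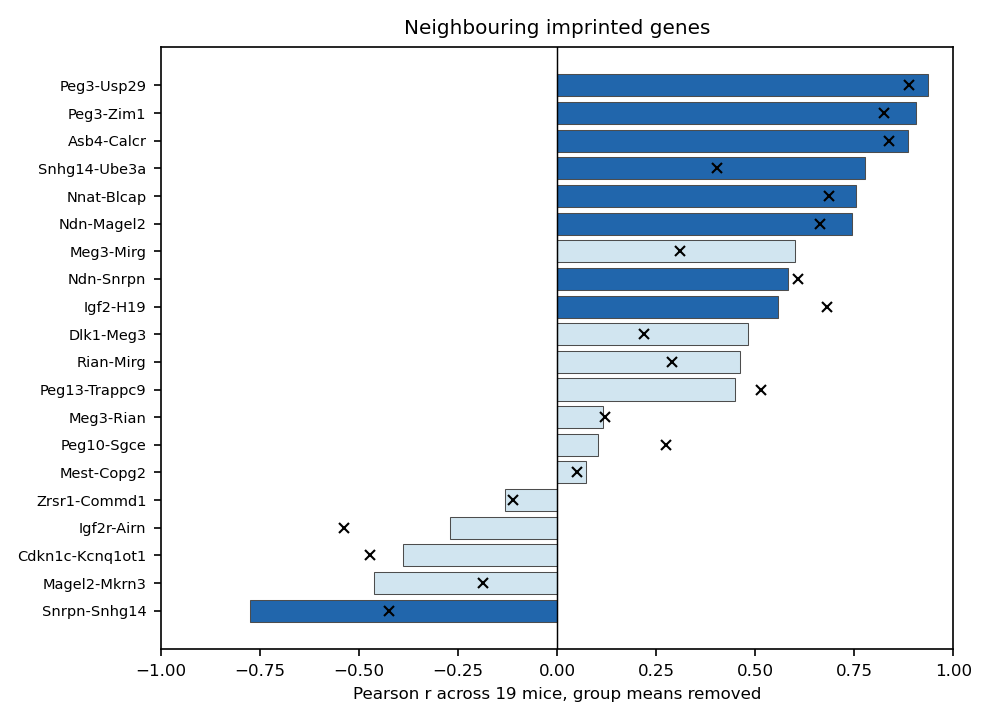
Pearson r of log2 CPM between 20 pairs of imprinted genes of the same cluster, across 19 mice with group means removed. Dark bars have an adjusted permutation p under 0.05, and crosses give r without the 2 mice farthest out on the first gene. Peg3-Usp29 is highest at 0.936 and Snrpn-Snhg14 lowest at -0.776.

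Many of these genes share their locus with others. The span of 21 of the 39 members overlaps another named gene, and 12 overlap another member, among them Nnat within Blcap, Zrsr1 within Commd1, Peg13 within Trappc9, and Airn across Igf2r. With the strand setting unknown, the values of these pairs are uncertain. A further list of 39 imprinted genes was read the same way, and 37 of them were tested. In amphetamine control against saline control mice, 26 were below 0 and 11 above (against 51.6% and 48.4% of all genes), with a median of -0.09. At an unadjusted p under 0.05, 8 of the 37 were lower and 3 higher (against 6.95% and 4.89% of all genes), and edgeR called 0. The smallest p-values belonged to Rtl1, a retrotransposon-derived gene of the Dlk1 cluster (-0.96 ± 0.243), to the signal peptide peptidase H13 (-0.26 ± 0.0683) and to the Polycomb-related gene Sfmbt2 (-0.52 ± 0.139), with edgeR adjusted p from 0.170 to 0.173. In amphetamine KO against saline KO mice the median of this list was -0.01, in saline KO against saline control 0.00, and in amphetamine KO against amphetamine control 0.08, with 0 called by edgeR each time.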

How the data were processed

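Whole-number gene counts per mouse were deposited by the authors; the submitters' processing notes name HTSeq 0.6.1p2, STAR 2.6.0c, Trim Galore 0.5.0, FastQC 0.11.5, DESeq2 1.26.0s, R 3.6.1 and build GRCm39, with no order. Neither annotation release nor strand setting is stated in the sources at hand. Per the file headers, the authors' tables give FPKM per mouse, log2 fold changes with standard errors, p-values and adjusted p-values for 3 comparisons. All 19 libraries were fitted as 4 group means with edgeR 4.0.16 (TMM, filterByExpr, robust quasi-likelihood; 21513 genes) in R 4.3.3, with Benjamini-Hochberg adjustment over all genes within each contrast and a call at an adjusted p under 0.05. SEs were taken as the absolute log2 fold change divided by the square root of F. limma 3.58.1 (voom), DESeq2 1.42.0, other scaling, no filter, only the groups compared, a replicate block and left-out libraries were alternatives. log2 CPM used a prior count of 2. Depth was 72759747 to 83149920 counts in amphetamine KO, 75449097 to 85536346 in saline KO, 57003408 to 80857642 in amphetamine control and 65578294 to 75756345 in saline control mice. Tested on data simulated for amphetamine against saline in control mice (21513 genes), the edgeR step recovered 62 of 100 genes changed 2-fold and 42 of 100 changed 1.5-fold, with 7 false calls.

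Members described in full were those called by edgeR or the authors' tables, the 3 with the smallest p in each contrast, and the 6 highest in FPKM; others are named to fill a cluster. Members and lists were chosen with earlier results of these data known. Coordinates in GRCm39 come from the deposited tables. Promoters come from RefSeq for GRCm38.p6, and strands of overlapping genes from GENCODE by gene ID.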

Additional observations from a re-analysis of the deposited data

Results flagged for a closer look

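Of 64 groups of mice examined for the members described in full, 2 held a mouse far from the rest of its group, and chance flags about 1 group in 20. Commd1 was at 30.9 CPM in saline KO 3, where the next mouse of that group had 21.9 CPM. Sgce was at 22.3 CPM in saline control 5, where the next mouse had 31.8 CPM. Both mice are among the 5 libraries that stood apart. Without those 5, the log2 fold change of Commd1 in amphetamine KO against saline KO mice was -0.20, and that of Sgce in saline KO against saline control mice was 0.10.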

How the results depend on the processing

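The counts of members below 0, of members at an unadjusted p under 0.05 and the medians, with all their alternatives, and the pairs of different clusters were chosen after seeing the data. The 52 single-gene values with an unadjusted p under 0.05 were recomputed under up to 26 settings. For the interaction, its counts and its 7 single terms, the fit with only the groups compared was not run, since it holds all groups. None of the 52 was a call, so keeping the side of the adjusted threshold meant staying uncalled. It does not measure whether the size or the unadjusted p held. In this sense 1337 recomputed values kept direction and side, 7 became calls (6 with DESeq2) and 1 changed sign. The last was Plagl1 in KO against control under amphetamine, at -0.15 without the 5 libraries that stood apart. Cdkn1c in amphetamine KO against saline KO mice counted as kept, although it was at 0.02 without the 5 libraries. In amphetamine against saline in control mice, members called were 0 and became 5 with DESeq2 and 1 (Nnat) with only the groups compared; all genes called were 1 and became 214 with DESeq2, 75 with only the groups compared and 39 without the 5 libraries. In KO mice all genes called were 1 and became 98 with DESeq2, 3 with limma voom, 0 with only the groups compared, 5 with the replicate block and 2 without the 5 libraries. There, members lower at an unadjusted p were 3 and became 5 with only the groups compared and 13 without the 5 libraries, and members higher were 1 and became 2 with limma voom, 2 with only the groups compared and 0 without the 5. In KO against control under saline, all genes called were 0 and 2 with DESeq2, members lower were 2 and 1 with only the groups compared, and members higher 1 and 0 with only the groups compared or without the 5 libraries. In KO against control under amphetamine, members called were 0 and 1 with DESeq2, all genes called 0, 103 with DESeq2 and 1 without the 5 libraries, members higher 18 and 2 without the 5, and the median 0.25 and 0.0800 without the 5. For the interaction, all genes called were 0 and 14 with DESeq2, members below 0 were 6 and 16 without the 5 libraries, members higher 7 and 3, the median 0.24 and 0.0492, and members lower 0 and 1 with no filter or the replicate block. The cause was not tested.

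Leaving out each library in turn, in the order amphetamine against saline in control and in KO mice, KO against control under saline and under amphetamine, and interaction, gave 0 members called throughout. All genes called ran from 0 to 6, 0 to 29 (29 without saline control 5), and 0 in the other three. Members below 0 ran from 33 to 35, 24 to 27, 13 to 22, 5 to 11 and 5 to 9, and the medians from -0.26 to -0.21, -0.13 to -0.04, -0.0355 to 0.0611, 0.19 to 0.28 and 0.18 to 0.29. Members lower at an unadjusted p ran from 14 to 21, 1 to 9, 0 to 3, 0 to 1 and 0 to 1, and members higher 0, 1 to 2, 0 to 2, 7 to 18 and 3 to 12.

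Mice with the same title number did not deviate together (r from -0.22 to 0.15 over 18 pairs, 1 over 0.1), so title numbers gave no sign of pairing. In amphetamine KO mice the authors' own labels skip a number, so most title numbers there do not match those labels. Pairing of KO mice by those labels was not tested. The replicate block, set by title number, called 0 members in each contrast and 5 genes in all in KO mice. Pairs of neighbours with r above 0 were 15 and stayed within 1.5 times of this under the alternatives. At this depth every member but H19 had at least 47 counts in each library, and H19 had 0 in its lowest, so counting error weighs most on H19.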

Other observations

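Factors that keep imprints in place were read from a list of 18 genes, of which 16 were in the deposited tables and 15 were tested. edgeR called 0 of them in any comparison. In amphetamine control against saline control mice their median log2 fold change was 0.02, with 6 below 0 and 9 above. It was -0.01 in amphetamine KO against saline KO mice (9 of 15 below 0), -0.06 in saline KO against saline control mice (12 of 15 below 0) and -0.10 in amphetamine KO against amphetamine control mice (13 of 15 below 0). Zfp57, the factor that binds the methylated hexamer, had the smallest p of the list in amphetamine control against saline control mice, at 4.51 CPM on average in amphetamine control mice and 7.11 CPM in saline control mice (-0.66 ± 0.211, edgeR adjusted p = 0.232). In amphetamine KO against amphetamine control mice it was one of the 2 above 0, at 0.70 ± 0.222 (edgeR adjusted p = 0.229), with 7.32 CPM in amphetamine KO mice, and the amphetamine control mice are shared by both values. The DNA methyltransferase Dnmt3a was at -0.29 ± 0.105 in saline KO against saline control mice (edgeR adjusted p = 0.614), and the Polycomb subunit Eed at -0.25 ± 0.0736 in amphetamine KO against saline KO mice (edgeR adjusted p = 0.282).

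Among the further imprinted genes, Dcn, which is also a meningeal fibroblast marker, had the smallest p in amphetamine KO against saline KO mice, at 1.32 ± 0.397 (edgeR adjusted p = 0.282). Kcnk9, a potassium channel gene next to Peg13 and Trappc9, had the smallest p in amphetamine KO against amphetamine control mice, at 0.43 ± 0.133 (edgeR adjusted p = 0.227), while Peg13 itself was at -0.03 and Trappc9 at 0.13.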
